A study of Mus musculus with 7 samples.

Results

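The genes that make and process ribosomal RNA (rRNA) were examined in 7 mature mouse eggs, each sequenced as a single cell at the MII stage, when meiosis halts in its second metaphase. The set was a list of 40 genes for RNA polymerase I (Pol I) and its factors, the proteins of small nucleolar RNPs (snoRNPs), and the assembly factors of both ribosomal subunits. They were found by gene symbol, and 38 of the 40 were among the 37620 gene identifiers of the deposited table. Taf1a and Noc2l were not analysed here. Of the 38 genes, 28 were above the expression filter of at least 1 FPKM (fragments per kilobase of gene, scaled to the reads of the library) in at least 3 oocytes. The 10 below it were Polr1b, Polr1e, Taf1c, Ubtf, Nop2, Bop1, Nop16, Rrp9, Rrp12 and Nob1.

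The WT group held 3 oocytes (WT1, WT2 and WT4) with floxed Hira alleles (Hiraf/f) and no Cre. The KO group held 4 oocytes (KO1 to KO4) with the same floxed alleles and the Zp3-Cre transgene, whose promoter is active in growing oocytes and leaves other cells unrecombined. Hira encodes a chaperone that places the histone variant H3.3 on DNA outside replication. No animal, strain, age or day is named in the labels, and WT3 is not analysed here. Each genotype therefore counts as 1 sample, no test of the genotype was made, and an SD is the spread between single oocytes.

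The reads in genes, recovered from the FPKM as described under processing, came to 15340782 to 25940519 per oocyte. These sums include the genes seen in 1 library, whose counts are not determined. Hira stood at 0.291 to 0.347 FPKM in the WT oocytes and 0.0242 to 0.0997 in the KO oocytes, without overlap. It was below the filter, and these values rest on few reads, 35 to 55 per WT oocyte and 5 to 17 per KO oocyte. All 8 oocyte markers were above the filter, and their summed level did not overlap between groups, at 3260 to 4160 FPKM in WT and 2110 to 2690 in KO. Gdf9 (-0.65) and Bmp15 (-0.64) were over 1.5-fold lower in KO without overlap and Zp2 (-1.01) with overlap, while the other 5 were within that limit. The part of this shift in the results was not tested. Of 12 cumulus and granulosa cell markers, 11 were below 1 FPKM in every oocyte, and Amh, Foxl2 and Tnfaip6 were at 0 in all 7. The exception was the FSH receptor gene Fshr, listed at 0 in KO1 and in all WT oocytes, with 2.99, 4.34 and 4.51 FPKM in KO2, KO3 and KO4. The summed level of the 12 markers was 0.0449 to 0.693 FPKM in WT and 0.785 to 5.59 FPKM in KO oocytes. Without Fshr, left out after the values were seen, the KO sums were 0.785, 0.247, 0.377 and 1.08 FPKM in KO1 to KO4 and overlapped WT. Has2 was listed at 0 in all KO oocytes and reached 0.275 FPKM in WT.

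In a growing cell, Pol I copies the repeated rRNA genes into a long precursor inside the nucleolus. Factor SL1, built from TBP and the TAF1 proteins, marks the promoter, UBTF holds the repeats open, RRN3 brings the polymerase, and TTF1 ends transcription. The precursor is then methylated by box C/D snoRNPs, pseudouridylated by box H/ACA snoRNPs, cut, and folded into the small and the large subunit. A mouse oocyte builds up its ribosomes during growth. It is largely silent in transcription once fully grown, and its nucleolus disperses at meiotic resumption, so transcripts at MII are mostly stored ones.

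Most of the set was at similar levels in both genotypes. Of the 28 genes above the filter, 24 lay within 1.5-fold on the log2(FPKM + 1) scale, 4 were over 1.5-fold higher in KO oocytes (Ttf1, Fbl, Utp20 and Polr1c) and 0 were over 1.5-fold lower. The background was 22.6% higher and 7.92% lower by the same limit, over all 8033 genes that passed the filter. The shares in the set were 14.3% and 0%. Polr1a and Polr1d were among the 24, although their ratios of mean FPKM, KO to WT, were 1.63 and 1.55. For Ttf1, Fbl and Utp20 the lowest KO oocyte exceeded the highest WT oocyte, which is 10.7% of the set against 18.9% of all genes. For Wdr12 and Utp6 the highest KO oocyte was under the lowest WT oocyte, which is 7.14% against 8.94%. The other 23 genes overlapped. Without overlap and also over 1.5-fold apart were the same 3 genes upwards and 0 downwards, where all genes gave 14.5% and 5.22%. A limit of 2-fold, added after the data were seen, left Ttf1 and Fbl upwards and 0 downwards, where all genes gave 7.95% and 2.34%.

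The median difference, KO minus WT, was 0.10 for the 28 genes and 0.18 for all genes, on the log2(FPKM + 1) scale. A positive difference was found for 19 of the 28 genes (67.9%) and for 63.8% of all genes. Scaling moved these values. With median-ratio scaling the median of all genes was -0.01, that of the set was -0.09, and the set held 3 genes over 1.5-fold higher (Ttf1, Fbl and Utp20) and 2 over 1.5-fold lower (Wdr12 and Utp6). All genes then split into 14.8% higher and 14% lower. Quantile normalization gave the same 3 and 2 genes, with medians of -0.03 for the set and -0.01 for all genes, which then split into 13.6% higher and 13.2% lower. Small positive differences turned negative under both scalings for Taf1b, Rrn3, Nop56, Nop10 and Rrp1, under quantile normalization for Gar1, and under median-ratio scaling for Nop58, Ncl, Nolc1 and Utp3. Leaving out KO1 raised the number of genes whose KO oocytes all lay above the WT oocytes from 3 to 7, adding Polr1c, Nop58, Ncl and Nolc1, and leaving out WT4 raised it to 5, adding Polr1a and Noc4l. These are 25% and 17.9% of the set, beside 23.3% and 23.9% of all genes in the same settings.

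**Figure D1:**
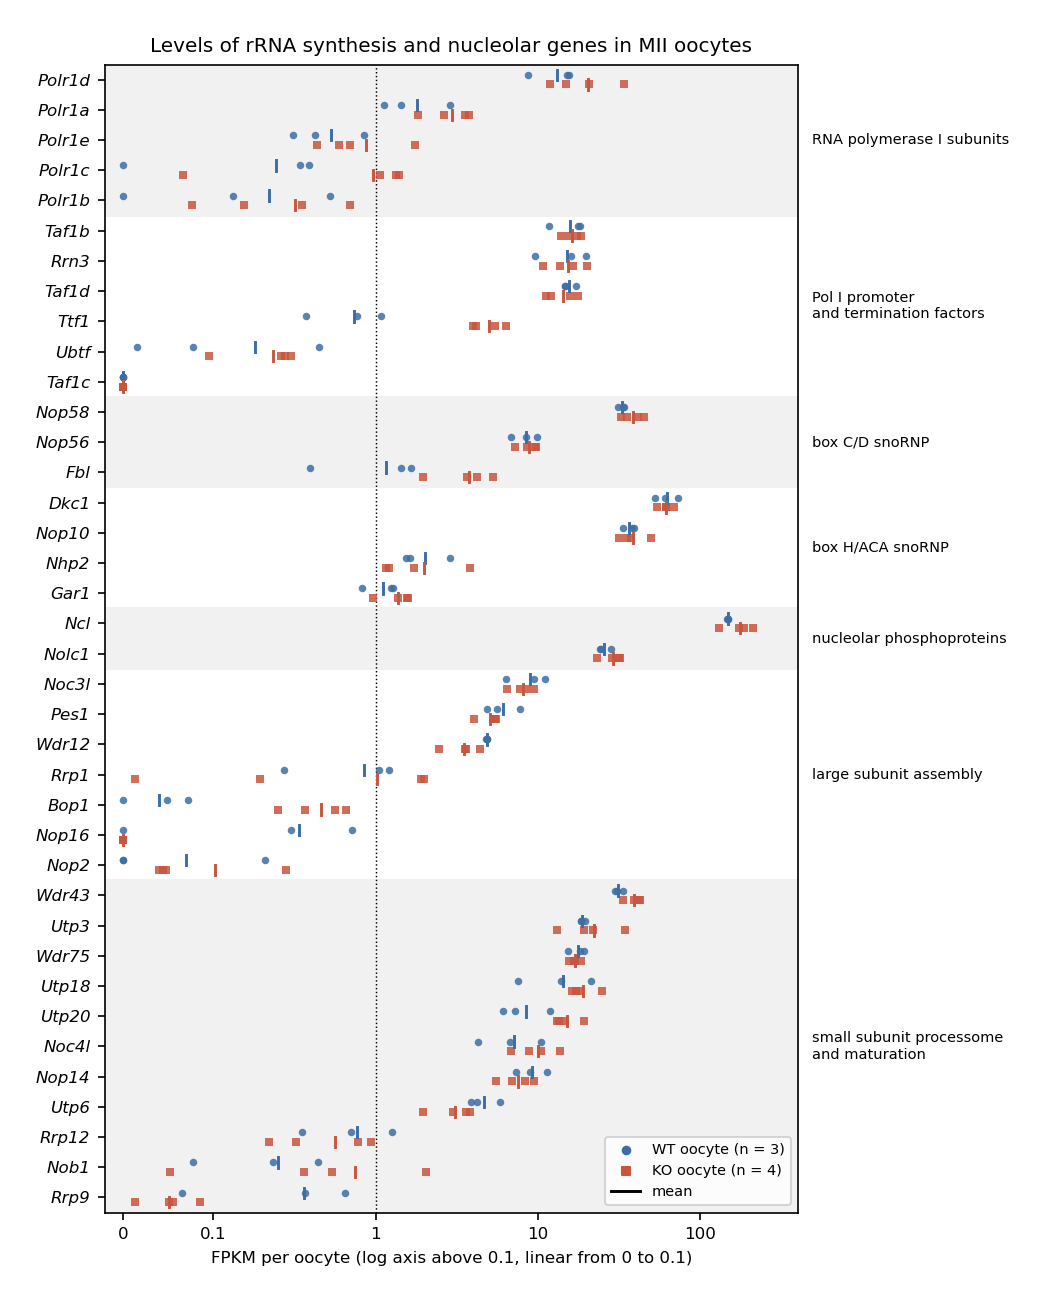
FPKM of each of the 38 genes in every oocyte, grouped by role, with WT oocytes as circles (n = 3), KO oocytes as squares (n = 4), vertical ticks for group means and a dotted line at 1 FPKM. The axis is logarithmic above 0.1 and linear from 0 to 0.1. Levels run from 0 for Taf1c to 211 FPKM for Ncl, with each gene on its own deposited length.

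FPKM divides by a gene length, and the length implied by the recovered reads differed from the exon length of the reference, from 0.217 times for Taf1d to 3.47 times for Nop56, with the median listed gene set at 1 and Nop16 left out because its reads are not determined. A ratio of FPKM between genotypes within a gene is untouched by this. The filter, the log2(FPKM + 1) differences and an order between genes hold for the deposited FPKM. At the reference length the means over all oocytes would be 0.684 FPKM for Fbl, 1.04 for Polr1c, 3.96 for Ttf1 and 9.83 for Utp20. As deposited they were 2.66, 0.657, 3.17 and 12.2 FPKM. The filter and the 1.5-fold limit were not applied again at that length. Polr1d, a subunit that Pol I shares with RNA polymerase III, was at 15.5, 8.71 and 15.1 FPKM in WT1, WT2 and WT4, and at 14.9, 33.8, 20.6 and 11.9 FPKM in KO1 to KO4. KO2 was the highest oocyte and WT2 the lowest, and the groups overlapped, with a difference of 0.53 and means of 13.1 ± 3.81 in WT and 20.3 ± 9.72 in KO (SD, n = 3 and n = 4). It was 0.26 without KO2 and 0.28 without WT2, and past the 1.5-fold limit without WT1 (0.67), WT4 (0.65), KO1 (0.64) or KO4 (0.74). Polr1a, the largest subunit and part of the catalytic centre, ranged from 1.12 to 2.86 FPKM in WT and from 1.82 to 3.78 in KO, also with overlap, and its difference of 0.51 was past the limit without WT4 (0.77) or KO1 (0.67). Polr1b, the other large subunit at that centre, ranged from 0 to 0.693 FPKM over all oocytes, and Polr1e, a subunit of the initiation module, from 0.31 to 1.75.

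Polr1c, the partner of Polr1d in Pol I and RNA polymerase III, was at 0.342, 0.387 and 0 FPKM in WT1, WT2 and WT4. It was at 0.0668, 1.34, 1.4 and 1.06 FPKM in KO1 to KO4. Thus KO2, KO3 and KO4 stood above all WT oocytes while KO1, with 5 reads, stood below WT1 and WT2. It was above the filter through these 3 KO oocytes alone. Its difference of 0.61 was just past the 1.5-fold limit, and it ended within that limit without WT4 (0.46), KO2 (0.50), KO3 (0.49) or KO4 (0.56). It was also within the limit at 0.18 for a pseudocount of 5, at 0.36 after quantile normalization and at 0.53 after scaling by median ratios.

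Among the promoter and termination factors, 3 overlapped widely between genotypes and Ttf1 did not. Taf1b, an SL1 subunit, was at 18.2, 17.7 and 11.7 FPKM in WT1, WT2 and WT4 and at 13.9, 17.4, 15.6 and 18.4 FPKM in KO1 to KO4, a difference of 0.06. The SL1 subunit Taf1d ranged from 11.2 to 17.7 FPKM over all oocytes, and Rrn3, which links the polymerase to SL1, from 9.53 to 20.2. Their differences were -0.14 and 0.04. Ubtf, whose protein coats the active rRNA repeats, was close to 0 in both groups, at 0.0155 to 0.449 FPKM in WT and 0.0951 to 0.303 in KO. Taf1c, the SL1 subunit that binds RRN3, was listed at 0 in all 7 oocytes. In the reference annotation 16.7% of the exon bases of Taf1c overlap those of Dnaaf1, and how reads in overlapping genes were counted is not given in the sources used here.

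Ttf1, which encodes the factor that binds the terminators of the rRNA repeats and stops Pol I there, had the greatest difference of the 28 genes above the filter. It was at 0.77, 1.08 and 0.373 FPKM in WT1, WT2 and WT4, and at 4.14, 5.46, 6.39 and 3.98 FPKM in KO1 to KO4. The lowest KO oocyte, KO4, was far above the highest WT oocyte, WT2. The means were 0.74 ± 0.352 in WT and 4.99 ± 1.14 in KO, a ratio of 6.75 and a difference of 1.78 on the log2(FPKM + 1) scale. The reads were 127, 209 and 55 in WT and 647, 1051, 1616 and 832 in KO. The rate was 6.62 times as high in KO (exact 95% interval 5.97 to 7.36, counting error only). Only WT2 reached 1 FPKM among the WT oocytes, so the gene was above the filter through the KO group. The difference stayed over 1.5-fold in all 12 alternatives that kept the gene, at 0.79 with a pseudocount of 5 and 2.67 with a pseudocount of 0.1.

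The 250 bases before the start of Ttf1 in RefSeq (GRCm38.p6, chr2:29060013-29060262, plus strand) are shown because Ttf1 had the greatest difference on the log2(FPKM + 1) scale among the 28 genes above the filter. Capitals mark CCGGAAGT, the core letters of an ETS-family site, which begin 30 bases before the start.

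Ttf1: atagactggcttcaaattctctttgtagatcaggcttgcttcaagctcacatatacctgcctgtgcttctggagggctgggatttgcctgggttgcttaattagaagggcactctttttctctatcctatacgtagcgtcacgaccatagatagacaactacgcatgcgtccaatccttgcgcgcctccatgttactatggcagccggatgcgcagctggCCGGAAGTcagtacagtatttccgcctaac

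Of the box C/D proteins, Fbl had the lowest FPKM and Nop58 the highest in every oocyte. The order of Nop58 and Nop56 rests on the lengths used, since Nop56 had more reads than Nop58 in 7 of 7 oocytes and the implied lengths were 0.224 and 3.47 times the reference for Nop58 and Nop56. Nop58, a scaffold of the particle, was at 31.3, 33.9 and 33.5 FPKM in WT1, WT2 and WT4 and at 32.4, 35.3, 41.6 and 44.8 FPKM in KO1 to KO4. KO1 lay below WT2 and WT4, so the groups overlapped. The difference was 0.21, or -0.03 once scaled by median ratios. Nop56, the scaffold that pairs with it, ranged from 6.87 to 9.87 FPKM over all oocytes, with a difference of 0.06. Of its transcript sequence, 18.6% of 50-base words are shared with other genes.

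Fbl encodes fibrillarin, the methyltransferase of the particle, and was higher in KO oocytes. It was at 1.44, 0.394 and 1.66 FPKM in WT1, WT2 and WT4 and at 3.66, 4.2, 5.29 and 1.97 FPKM in KO1 to KO4. KO4 was only just above WT4, and the other 3 KO oocytes were over 2 times as high as any WT oocyte. The means were 1.16 ± 0.674 and 3.78 ± 1.38, a ratio of 3.25 and a difference of 1.15. The reads were few, 80 in WT and 449 in KO, a rate 3.5 times as high in KO (2.76 to 4.5). The difference was 0.5 with a pseudocount of 5, within the limit, and with quantile normalization the groups overlapped. Of the 50-base words of Fbl transcripts, 19.7% are also found in other genes, Tulp4 and Gm5812 in particular, so a part of its reads cannot be assigned with certainty.

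The box H/ACA proteins differed little between genotypes, and they fell into a high and a low pair. Dkc1, the pseudouridine synthase, was at 60.3, 73.3 and 52.7 FPKM in WT1, WT2 and WT4 and at 68.8, 53.9, 61.4 and 61.1 FPKM in KO1 to KO4. The means were 62.1 ± 10.4 and 61.3 ± 6.05, with a difference of -0.01. Nop10, the small protein that sits on its active domain, ranged from 31.7 to 49.4 FPKM, a difference of 0.05. Nhp2, which holds the RNA on the enzyme, ranged only from 1.16 to 3.82 FPKM, a difference of -0.07. Gar1, which helps product release, was at 1.28, 0.822 and 1.24 FPKM in WT1, WT2 and WT4 and at 1.58, 0.969, 1.57 and 1.38 FPKM in KO1 to KO4. Its difference of 0.17 was the greatest of these 4, with overlap. In every oocyte Dkc1 and Nop10 were above Nhp2 and Gar1 by more than the spread of each gene.

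Ncl, which encodes nucleolin, an abundant RNA-binding protein of the nucleolus, had the highest FPKM of the set. It was at 148, 147 and 148 FPKM in WT1, WT2 and WT4 and at 131, 174, 187 and 211 FPKM in KO1 to KO4. KO1 was the lowest of all 7 oocytes and KO2, KO3 and KO4 the highest. The means were 147 ± 0.692 and 176 ± 33.6, and the difference was 0.23, or -0.01 once scaled by median ratios and 0.35 after quantile normalization. Nolc1, a chaperone of snoRNPs, had the same lowest oocyte. It was at 23 FPKM in KO1, 24.1 to 28.3 in WT and 28.7 to 32.2 in the other KO oocytes, and its difference was 0.16, or -0.08 once scaled by median ratios and 0.05 after quantile normalization.

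**Figure D2:**
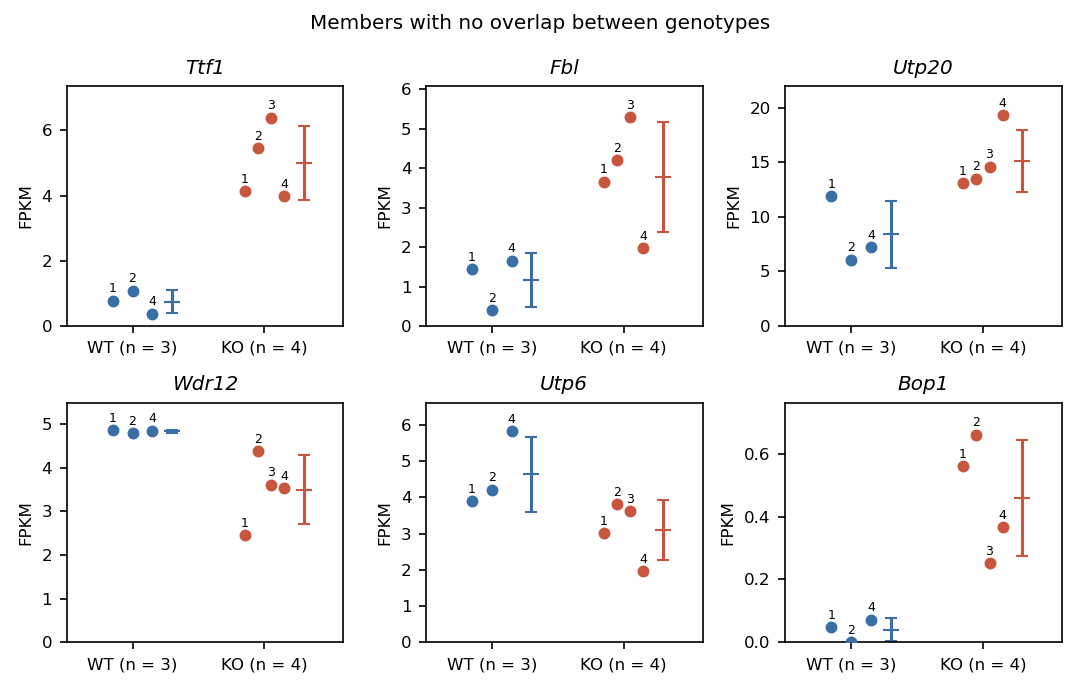
FPKM per oocyte of the 6 genes whose KO oocytes all lay on 1 side of all WT oocytes, with the replicate number over each point and the mean ± SD beside it (WT n = 3, KO n = 4). Ttf1, Fbl, Utp20 and Bop1 are higher in KO and Wdr12 and Utp6 lower, and Bop1 stays below 1 FPKM throughout. Without the filter, the 4 higher and 2 lower are 10.8% and 5.41% of the 37 members with a value. Of all 18300 genes with a value, 11.9% and 4.92% lie apart in these directions.

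Of the large-subunit factors, Pes1, Bop1 and Wdr12 form the PeBoW complex, which is needed to process the precursor of the large subunit. Wdr12 was at 4.86, 4.79 and 4.85 FPKM in WT1, WT2 and WT4 and at 2.46, 4.37, 3.61 and 3.53 FPKM in KO1 to KO4. All KO oocytes were below all WT oocytes, KO1 most and KO2 least. The means were 4.84 ± 0.0359 and 3.49 ± 0.785, and WT was 1.38 times KO. The difference of -0.39 was within 1.5-fold as deposited and past it after quantile normalization (-0.64) or scaling by median ratios (-0.59). Pes1 ranged from 4.03 to 7.74 FPKM with overlap, a difference of -0.20, and shares 23.3% of its 50-base words with other genes.

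Bop1 was below the filter but did not overlap between groups, and is singled out after its values were seen. It was at 0.0482, 0 and 0.0719 FPKM in WT1, WT2 and WT4 and at 0.559, 0.66, 0.251 and 0.367 FPKM in KO1 to KO4. The reads were 3, 0 and 4 in WT and 33, 48, 24 and 29 in KO, a rate 12 times as high in KO with a wide interval of 5.64 to 30.3. At this level the difference on the log2(FPKM + 1) scale was 0.48, compressed by the pseudocount.

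Noc3l, an assembly factor that travels with the early large subunit, had the highest FPKM of this role. It was at 6.38, 9.4 and 11.1 FPKM in WT1, WT2 and WT4 and at 8.49, 9.47, 6.47 and 7.76 FPKM in KO1 to KO4, with overlap and a difference of -0.12. Rrp1, another early large-subunit factor, varied most between oocytes of the same genotype, from 0.0136 to 1.99 FPKM in KO and from 0.273 to 1.21 in WT. Its pooled SD was 0.70 on the log2(FPKM + 1) scale, against a median of 0.28 over the set and 0.32 over all genes. Nop2, an rRNA methyltransferase, was at 0.28 FPKM or less in every oocyte. Nop16 was listed at 0 in WT4 and all KO oocytes and at 0.711 and 0.302 FPKM in WT1 and WT2.

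The small-subunit factors gave 1 gene higher and 1 lower without overlap. Utp20, a very large scaffold of the small-subunit processome, was at 11.9, 6.06 and 7.21 FPKM in WT1, WT2 and WT4 and at 13.1, 13.5, 14.6 and 19.3 FPKM in KO1 to KO4. WT1 came close to KO1, and KO4 was the highest. The means were 8.38 ± 3.08 and 15.1 ± 2.86, a ratio of 1.81 and a difference of 0.82. It was the one gene of the set over 1.5-fold apart with the filter raised to 10 FPKM, and its difference stayed over that limit in all 13 alternatives (0.59 to 1.07), although the groups overlapped with median-ratio scaling. None of its 50-base words is shared with other genes.

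The 250 bases before the start of Utp20 (RefSeq, GRCm38.p6, chr10:88826815-88827064, minus strand) are shown beside those of Ttf1 as the other gene over 1.5-fold higher in every alternative that kept it. Capitals mark GGGCGG read on the opposite strand, the letters of a GC box, which begin 24 bases before the start.

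Utp20: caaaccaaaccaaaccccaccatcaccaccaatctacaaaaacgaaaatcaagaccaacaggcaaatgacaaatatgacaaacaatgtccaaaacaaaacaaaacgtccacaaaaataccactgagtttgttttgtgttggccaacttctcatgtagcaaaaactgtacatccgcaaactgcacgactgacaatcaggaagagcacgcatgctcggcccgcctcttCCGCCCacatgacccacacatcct

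Utp6, another processome component, was at 3.89, 4.21 and 5.82 FPKM in WT1, WT2 and WT4 and at 3.01, 3.82, 3.61 and 1.97 FPKM in KO1 to KO4. KO2 was just below WT1, and KO4 was the lowest. The means were 4.64 ± 1.03 and 3.1 ± 0.826, and WT was 1.49 times KO. The difference of -0.47 was past the limit after quantile normalization (-0.73) or scaling by median ratios (-0.66), and only just past it with a pseudocount of 0.1 (-0.58). Wdr43, a component of the processome that links it to transcription, had the highest FPKM of this role as deposited. At the exon length of the reference its mean over all oocytes would be 24.1 and that of Utp18 26.4. Wdr43 was at 30.5, 33.5 and 29.9 FPKM in WT1, WT2 and WT4 and at 42.4, 42, 33.3 and 39 FPKM in KO1 to KO4, and KO3 lay just below WT2. Its difference was 0.31, or 0.07 once scaled by median ratios.

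The other small-subunit genes above the filter overlapped between groups. Wdr75, a processome protein, ranged from 15.4 to 19.2 FPKM over all oocytes, with a difference of -0.05. Utp3 ranged from 13.1 to 34.3 FPKM, both in KO oocytes, while WT held 18.4 to 19.4. Utp18 ranged from 7.57 to 24.8 FPKM, Noc4l from 4.3 to 13.7 and Nop14 from 5.54 to 11.4, with differences of 0.49, 0.46 and -0.26. Leaving out an oocyte took 2 of these past the 1.5-fold limit, although by less than the spread between oocytes. Utp18 was 0.12 without WT4 and 0.81, without overlap, without WT1. Noc4l was 0.19 without WT2, 0.74 without WT4 and 0.61 without KO3. Utp3, with a difference of 0.15, stayed within the limit, at -0.08 without KO3 and 0.36 without KO1. Below the filter were Rrp12, Nob1, which cuts the small-subunit rRNA to its final end, and Rrp9, which belongs to the snoRNP that guides the first cuts. Rrp12, a factor in export of the small subunit, ranged from 0.222 to 1.26 FPKM and Nob1 from 0.0526 to 2.05. Rrp9, also singled out after its values were seen, held 89 reads in WT and 21 in KO, with 0.0651, 0.652 and 0.365 FPKM in WT1, WT2 and WT4 and at most 0.0849 in KO, where KO3 lay above WT1.

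**Figure D3:**
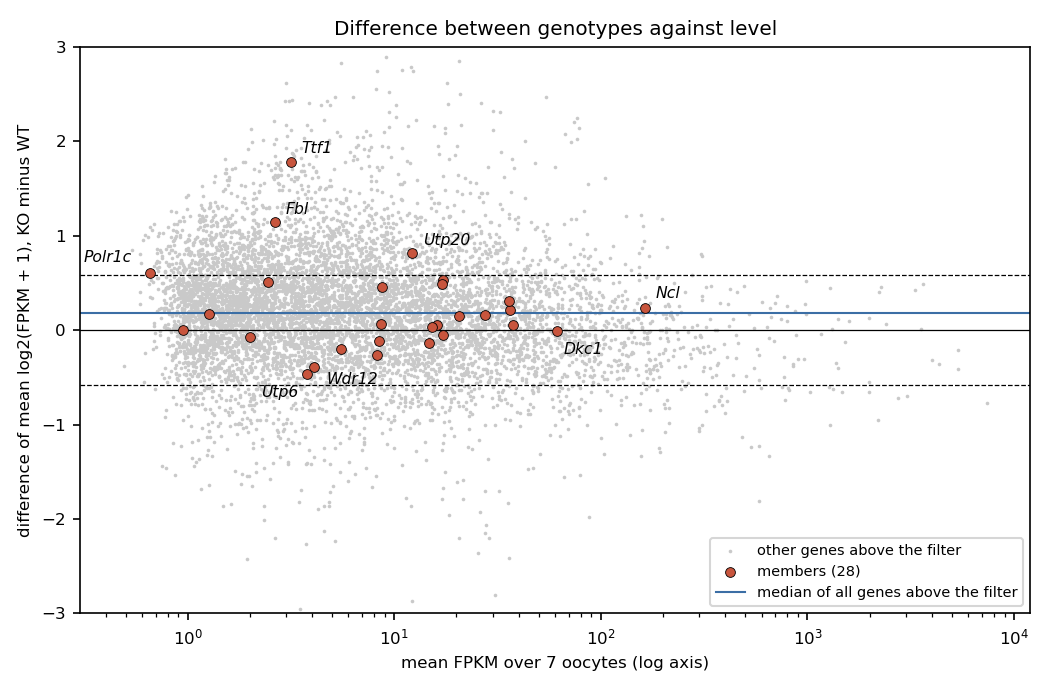
KO minus WT difference in mean log2(FPKM + 1), plotted against mean FPKM over 7 oocytes for the 28 members (large points) and the other genes above the filter (small points), with dashed lines at 1.5-fold and a line at the median of all genes. The axis leaves out 15 genes beyond 3 in either direction. Ttf1, Fbl, Utp20 and Polr1c lie above the upper dashed line and none of the 28 below the lower one.

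The difference between genotypes depended on level over all genes, so the members were also read by level. Under 3 FPKM on average, 2 of 6 members passed the 1.5-fold limit upwards, beside 24.6% of all genes at that level. Of the 8 at 3 to 10 FPKM, 1 was higher beside 27.5%, and their median was -0.16 against 0.23. Of the 9 at 10 to 30 FPKM, 1 was higher beside 19.6%, with medians of 0.15 and 0.14. The 4 members at 30 to 100 FPKM were all within 1.5-fold, beside 15.2% of all genes higher and 8.74% lower. Their median was 0.13 against 0.04. Ncl was the only member of 100 FPKM and over, and its 0.23 stood beside a median of -0.13. At each level 0 members were over 1.5-fold lower, beside 6.67% (under 3 FPKM) to 17.1% (100 FPKM and over) of all genes.

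The set was also read per oocyte. The median of the 28 genes against their WT mean was -0.08, 0.27, 0.08 and 0.19 in KO1 to KO4, while the WT oocytes, which set that mean and so lie near 0, gave 0.00 to 0.01. For all genes the medians were 0.17, 0.28, 0.13 and 0.15 in KO1 to KO4 and -0.07 to 0.08 in WT. The 38 genes took 0.323%, 0.329% and 0.318% of reads in WT1, WT2 and WT4, and 0.329%, 0.39%, 0.39% and 0.416% in KO1 to KO4. KO1 fell within the WT range and the other 3 lay above it, and this placing of KO1 rests on Ncl, which held 40% to 50.2% of the members' reads. Without Ncl, left out after the values were seen, the shares were 0.179%, 0.184% and 0.173% in WT1, WT2 and WT4 and 0.197%, 0.216%, 0.204% and 0.207% in KO1 to KO4, so that every KO oocyte, KO1 included, was above WT. A share of reads depends on the reads of all other genes, and none was taken for another set. The higher share in KO is therefore not shown to be particular to the members. Of the 12 cumulus and granulosa markers, only Cyp11a1, Star and Ptgs2 were above 0 in KO1, at 0.35, 0.21 and 0.225 FPKM. These were the highest of the KO oocytes, on 12, 16 and 9 reads, and Ptgs2 was higher in WT1 (0.237) and WT2 (0.362). Fshr, Inhba, Inha, Col1a1 and Ptx3 were at 0 in KO1 and reached 4.51, 0.343, 0.971, 0.0336 and 0.0806 FPKM in other KO oocytes. The part of other cells' RNA in these values was not tested. The numbers of genes of the set with at least 1 FPKM were 24 to 27 in WT and 26 to 29 in KO.

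**Figure D4:**
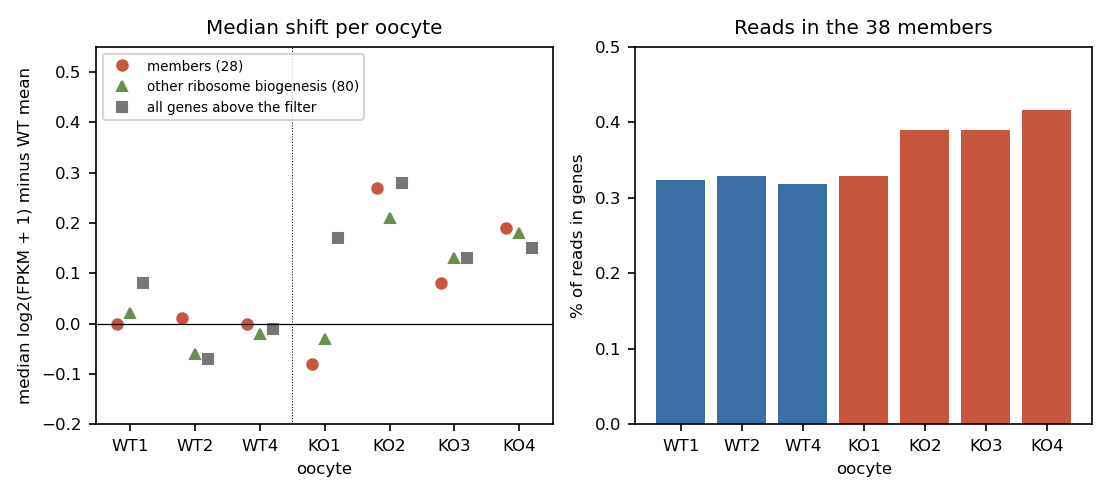
Left, median log2(FPKM + 1) minus the WT mean in each oocyte, for the 28 members, 80 other ribosome biogenesis genes and all genes above the filter. Right, percent of reads in genes that fell in the 38 members, with WT and KO oocytes in different colours. KO1 lies at -0.08 and 0.329%, and KO2, KO3 and KO4 lie higher on both sides. The WT points on the left lie near 0 because they set the mean.

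A list of 108 other ribosome biogenesis genes was read the same way. Of these, 107 were in the table and 80 above the filter, of which 14 (17.5%) passed the 1.5-fold limit upwards and 4 (5%) downwards, beside 22.6% and 7.92% of all genes. The median difference was 0.07, beside 0.18. KO oocytes were above all WT oocytes for 12 genes (15%) and below all of them for 10 (12.5%), beside 18.9% and 8.94%. The greatest differences upwards were 1.59 for Ruvbl1, an ATPase that helps assemble box C/D snoRNPs, and 1.01 for Rrp36, a small-subunit processome factor. Ruvbl1 was at 3.99, 4.91 and 7.84 FPKM in WT and 15.7 to 21.4 in KO, but 49.4% of its 50-base words are shared, chiefly with Gm5837. Rrp36 was at 4.43 to 6.54 FPKM in WT and 8.88 to 14.4 in KO. The greatest downwards were -1.06 for Emg1, an rRNA methyltransferase (3.72 to 4.91 in WT and 0.524 to 2.63 in KO), and -1.03 for Wdr36, a processome protein (19.9 to 32 in WT and 10.9 to 15.1 in KO). None of these 4 overlapped between groups.

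That list also held the remaining subunits found only in Pol I, which were singled out after their values were seen. Polr1g, the partner of Polr1e, was at 1.12, 0.484 and 1.74 FPKM in WT1, WT2 and WT4 and at 3.14, 3.17, 2.72 and 3.33 FPKM in KO1 to KO4, a difference of 1.00 without overlap. Polr1f, of the stalk, was at 3.85 to 6.86 FPKM in WT and 6.37 to 14 in KO with overlap, a difference of 0.80. Polr1h, the subunit that trims RNA in the enzyme, was at 1.00 to 1.23 FPKM in WT and 0.022 to 1.67 in KO, a difference of -0.55 with overlap. Polr1h was above the filter through the 3 WT oocytes and KO2, and KO2 was above every WT oocyte. Of 18 non-coding snoRNA host genes, 8 were in the table and only Gas5 was above the filter, at 2.72 to 3.29 FPKM in WT and 2.86 to 3.48 in KO, a difference of 0.06.

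Promoters were read for what the members shared in sequence. RefSeq windows of 250 bases before the start (GRCm38.p6) were found for 36 of the 40 genes. The letters CCGGAAGT, on either strand, were in 7 of the 36 (19.4%) and in 3.23% of 27025 genes with such a window. GGGCGG was in 22 of 36 (61.1%) and 35.4% of all, CACGTG, the MYC-type E-box, in 3 of 36 (8.33%) and 6.86%, and GCATGCGC in 2 of 36 (5.56%) and 2.56%. TATAAA was in 2 of 36 (5.56%) and 14.3%, and AAGATGGCG in 0 of 36 and 0.71%. The background was every gene with a window, expressed in these oocytes or not. Shares among genes above the filter or among the other biogenesis genes were not taken, so no motif is shown to be particular to the set. The 250-base windows of Ttf1 and Utp20 printed above each hold 1 match among these 6 motifs. The stretches around CCGGAAGT are shown because its share was the furthest above that of all genes as a ratio. Each line reads 5′ to 3′ on the strand that shows the motif, with the motif in capitals and up to 10 bases on either side.

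Polr1c (chr17:46248070-46248097, minus strand): cacttgacgtCCGGAAGTgaaggacgtg
Ttf1 (chr2:29060223-29060250, plus strand): gcgcagctggCCGGAAGTcagtacagta
Taf1a (chr1:183388810-183388837, minus strand): cggacgaggcCCGGAAGTggatgttgac
Taf1c (chr8:119605217-119605244, plus strand): ccggatcaggCCGGAAGTtcgcccgaga
Gar1 (chr3:129831423-129831450, plus strand): cgcgacgtttCCGGAAGTgtggcggcgc
Nhp2 (chr11:51619740-51619767, plus strand): acttgaaaacCCGGAAGTgatgtcggag
Utp3 upstream (chr5:88554228-88554255, plus strand): cggcttcacgCCGGAAGTcaccagagag
Utp3 downstream (chr5:88554314-88554341, plus strand): gcgttcctacCCGGAAGTtttcattcgc

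The genes that carry these letters did not move as 1 group. Ttf1 and Polr1c were over 1.5-fold higher in KO oocytes, Gar1, Nhp2 and Utp3 differed by 0.17, -0.07 and 0.15 with overlap, Taf1c was listed at 0, and Taf1a was not analysed here. A match is a description of letters and shows no binding.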

How the data were processed

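RNA of single MII oocytes (3 WT and 4 KO) was amplified with an ultra-low-input kit and sequenced, per the labels. The deposited table holds FPKM that the authors computed per Ensembl gene and library, not logged. The submitters' processing notes name edgeR 3.1.10, HTSeq, 2 read aligner families (TopHat, with TopHat2 2.0.2, and Bowtie 0.12.8, with Bowtie2) and the mm9 build, with no role for each. Symbols came from GENCODE M21 (GRCm38), which named 32897 of the 37620 identifiers, and 4 listed genes were found by an older symbol.

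The members and lists were chosen with earlier results of these data known. A gene passed the filter at 1 FPKM or more in 3 or more oocytes. Its difference is mean log2(FPKM + 1) in KO less that in WT, with a size limit of 1.5-fold. Ratios are of mean FPKM. Whole reads were recovered from the steps of the FPKM as the smallest counts within 0.01 reads, for 18300 of 18300 genes with a value. On simulated data 99.1% of 16301 genes came out exactly. The count is not determined for 2437 genes seen in 1 library, nor for Nop16. Reads of amplified cDNA are not independent molecules, so intervals cover counting error only. Named were members without overlap and over 1.5-fold apart, the most abundant and most different member of each role, and the 2 genes furthest in each direction of the other biogenesis list; every other member is given by its range or level. Shared sequence is the percent of 50-base words of a gene's GENCODE transcripts found in other genes. Promoters are RefSeq's. In 39 of 46 member windows the bases just after the start lay in a GENCODE transcript of the gene. Alternatives were other pseudocounts, filters and scalings and leaving out each oocyte. Python 3.11.15, numpy 2.4.6, pandas 2.3.3 and scipy 1.17.1 were used.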

Additional observations from a re-analysis of the deposited data

Results flagged for a closer look

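Pes1 in KO1 stood far from the other KO oocytes, at 4.03 FPKM against 5.39 to 5.53 in KO2, KO3 and KO4, a gap of 0.908 of the range of the group. It was the only 1 of 28 members (3.57%) with such an oocyte among the KO libraries. Chance gives about 1 in 20, so 1 such member is no more than chance would give. Groups of 3, as for WT, were not checked.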

How the results depend on the processing

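Ttf1 (0.79 to 2.67) and Utp20 (0.59 to 1.07) stayed over 1.5-fold higher in every alternative that kept them. No difference over 1.5-fold changed sign. The number of members over 1.5-fold higher was 4. It was 5 with a pseudocount of 0.1, 2 with a pseudocount of 5 and 1 with a filter at 10 FPKM (15 members left). It was 2 with a 2-fold limit chosen after seeing the data, and 3 to 6 when an oocyte was left out. The shares of all genes were 30.8%, 7.86%, 18.1%, 7.95% and 19.7% to 28.5% in the same order. The number lower, 0, was 1 with a pseudocount of 0.1, 2 after quantile normalization, 2 after scaling by median ratios, and 0 in each leave-one-out. The shares of all genes lower were 11%, 13.2%, 14% and 7.52% to 9.15% in the same order. With the filter at 10 FPKM, members without overlap numbered 1 above and 0 below, beside 17.1% and 14.1% of all genes. They numbered 3 to 7 above and 2 to 3 below when an oocyte was left out, beside 20.4% to 32.6% and 10% to 13.1%. Under each scaling they numbered 2 above and 3 below (7.14% and 10.7%), with Nop14 added below. All genes gave 12% above and 14% below after quantile normalization, and 12.5% and 14.9% after scaling by median ratios. The median difference of the members was -0.03 after quantile normalization, -0.09 after scaling by median ratios, and 0.08 to 0.20 in leave-one-out. That of the other biogenesis genes was -0.10, -0.12 and 0.06 to 0.16 in the same order, and -0.02 with the filter at 10 FPKM. The cause was not tested. Of 351 values of single members, 334 moved by less than the spread between oocytes and 17 by more. No paired analysis was possible because the result comes from no test and the labels do not say what a replicate number marks. Members under 1 FPKM rest on few reads.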
